A study of Mus musculus with 20 samples.

Results

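The 9 genes described here encode G protein-coupled receptors for lipids, nucleotides and other small metabolites: Gpr183, Gpr34, Gpr18, Gpr35, Gpr84, P2ry6, P2ry12, P2ry13 and P2ry14. They were found by symbol among the 23090 genes counted in each library, and 9 of 9 were matched. Gpr183, Gpr34 and Gpr18 were selected on the measured counts themselves, which are lower under CBPi in both cell types, so their values in the comparisons of CBPi with vehicle are given as a description without a test. The other 6 were added by name, with earlier results of these data known.

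The libraries hold poly-A RNA of myeloid-derived suppressor cells (MDSC) sorted from tumours, in a monocytic (mMDSC) and a granulocytic (gMDSC) population. There were 4 groups of 5 libraries: vehicle mMDSC 1 to 5, CBPi mMDSC 6 to 10, vehicle gMDSC 1 to 5 and CBPi gMDSC 6 to 10. Both sorted populations were CD45+, CD11b+, Ly6C+ and F4/80-, with mMDSC Ly6G- and gMDSC Ly6G+. All hosts were female SCID.beige mice, 6 to 8 weeks old and age-matched, a strain without mature T and B cells and with impaired NK cells. Each carried a tumour grown under the skin of the right flank from 5000000 cells of MDA.MB.231-X1.1, a human triple-negative breast cancer line, or of CT26, a mouse colon carcinoma line. The labels do not tie a library to either line, so a difference between lines cannot be told apart from the groups. Once tumours averaged 150 to 200 mm3, mice were given MCT vehicle or 25 mg/kg GNE-781, which blocks the bromodomain of CBP and EP300 (CBPi), by mouth BID for 7 days. The labels do not say whether 2 libraries shared a mouse, so p-values measure only the spread between these libraries.

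These receptors sit in the plasma membrane and pass a signal to heterotrimeric G proteins when a small molecule outside the cell binds. GPR183 (also called EBI2) senses oxysterols made from cholesterol by CH25H and CYP7B1 and steers the position of immune cells in lymphoid tissue. GPR34 responds to lysophosphatidylserine and P2RY12, P2RY13, P2RY14 and P2RY6 respond to nucleotides or nucleotide sugars released by stressed or dying cells. In macrophages and microglia such receptors are known for guiding migration and engulfment. GPR84 responds to medium-chain fatty acids, GPR35 to tryptophan and indole metabolites among other proposed ligands, and GPR18 to N-arachidonoyl glycine and resolvins as proposed ligands.

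In the mouse genome (GRCm38.p6, RefSeq), 6 of the 9 genes lie inside the span of 3 larger host genes, all on the strand opposite to the host. Gpr183 (chr14:121952331-121965193, minus strand) and Gpr18 (chr14:121911434-121915888, minus strand) lie 36.4 kb apart inside Ubac2. Gpr34 (chrX:13622650-13640859, plus strand) lies inside Cask, 5.27 kb from Gpr82. P2ry12 (chr3:59216271-59262985), P2ry13 (chr3:59207892-59210882) and P2ry14 (chr3:59114623-59153492) share the minus strand inside Med12l with the orphan receptor gene Gpr171, and P2ry13 is 5.39 kb from P2ry12. No coding exon of these 6 genes (0 of 6) overlapped an exon of its host. Gpr35 (chr1:92948052-92986391, plus strand), Gpr84 (chr15:103308233-103310670, minus strand) and P2ry6 (chr7:100937630-100975498, minus strand) had no host gene. The strand setting of the authors' counting is not given in the sources used here, so reads from overlapping transcripts on opposite strands could not be told apart.

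**Figure D1:**
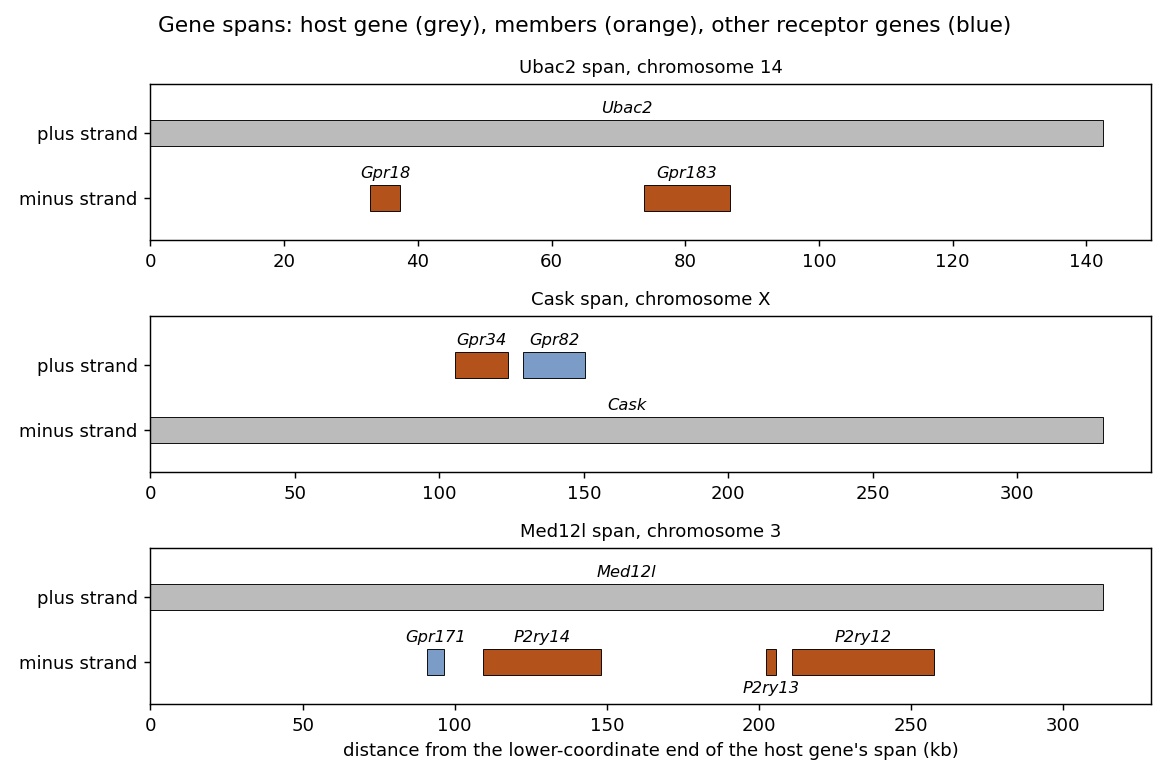
Gene spans inside the 3 host genes, with distance in kb from the lower-coordinate end of the host on the horizontal axis and strand on the vertical axis. Grey bars are host genes, orange bars the 6 nested receptor genes described here and blue bars other receptor genes; every nested gene lies on the strand opposite to its host.

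The sequence before the annotated start is shown for the neighbouring pairs Gpr183 with Gpr18 and P2ry12 with P2ry13, which share a host gene and whose levels are compared below. Each line covers 240 bases, from base 250 to base 11 upstream of the RefSeq start, 5′ to 3′ on the gene's own strand (RefSeq promoter table, GRCm38.p6). Capitals mark matches to 1 of 7 motifs searched on both strands: AP-1 (TGANTCA), CRE (TGACGTCA), C/EBP (TTGCNNAA), PU.1 (GAGGAAGT), RUNX (TGTGGTT), and by name IRF and NF-kB.
Gpr183: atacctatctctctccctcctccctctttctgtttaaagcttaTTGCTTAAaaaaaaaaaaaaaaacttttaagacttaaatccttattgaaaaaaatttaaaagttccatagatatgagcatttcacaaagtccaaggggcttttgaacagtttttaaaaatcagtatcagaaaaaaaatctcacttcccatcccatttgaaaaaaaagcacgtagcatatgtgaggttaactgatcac
Gpr18: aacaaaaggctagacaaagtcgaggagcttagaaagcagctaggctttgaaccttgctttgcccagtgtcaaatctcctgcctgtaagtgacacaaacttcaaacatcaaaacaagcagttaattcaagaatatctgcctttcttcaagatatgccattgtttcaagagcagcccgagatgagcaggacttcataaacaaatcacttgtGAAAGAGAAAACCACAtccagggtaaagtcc
P2ry12: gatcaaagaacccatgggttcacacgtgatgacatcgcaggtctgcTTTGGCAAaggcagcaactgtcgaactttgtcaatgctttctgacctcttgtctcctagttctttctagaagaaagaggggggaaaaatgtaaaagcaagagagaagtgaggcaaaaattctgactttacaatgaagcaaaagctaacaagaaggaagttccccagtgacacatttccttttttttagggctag
P2ry13: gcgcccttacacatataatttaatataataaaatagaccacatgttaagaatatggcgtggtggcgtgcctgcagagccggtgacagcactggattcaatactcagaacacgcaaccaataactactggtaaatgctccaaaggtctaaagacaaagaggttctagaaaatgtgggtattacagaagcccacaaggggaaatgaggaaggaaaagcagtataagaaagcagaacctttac

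Gpr183 (chr14:121965204-121965443, minus strand) held a C/EBP match starting 207 bases upstream, and P2ry12 (chr3:59262996-59263235, minus strand) held one at 204 bases. Gpr18 (chr14:121915899-121916138, minus strand) held an IRF match at 41 bases that overlapped a RUNX match at 32 bases. P2ry13 (chr3:59210893-59211132, minus strand) held none of the 7 motifs. Of 32851 promoter windows of this length in the table, 9.29% held the C/EBP letters, 2.87% the IRF letters, 4.24% the RUNX letters and 6.58% the AP-1 letters. The CRE letters were in 1.44%, those of PU.1 in 2.29% and those of NF-kB in 0.353% of windows. A match describes the letters and is not a binding site. The table held windows for 7 of the 9 genes. In the other windows Gpr35 held an AP-1 match in 1 of its windows, P2ry14 held AP-1 and C/EBP matches, and Gpr84 held none.

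Depth ran from 12.37 to 26.64 M counts (mega-counts) per library. Vehicle gMDSC 1 to 4, with 12.37 to 14.1 M, were shallower than every CBPi gMDSC library. Levels of 1 gene across libraries are given as CPM, the counts in 1 M counts of a library, scaled by TMM over all 20 libraries. Vehicle gMDSC 3 stood apart from its group, with a mean correlation of log2 CPM with the other 4 of 0.859 against 0.898 to 0.917 for the rest, so results that rest on it are given with and without it. The labels were compared with marker RNA. Cxcr2, a neutrophil chemokine receptor, was 1428 ± 371 CPM (SD, n = 5) in vehicle gMDSC and 1.28 ± 0.946 CPM in vehicle mMDSC, and Ly6c2, a monocyte surface antigen gene, was 832 ± 245 CPM in vehicle mMDSC and 44.5 ± 21.1 CPM in vehicle gMDSC. Ly6g, the gMDSC gate gene, was low in RNA, 5.21 ± 3.12 CPM in vehicle gMDSC and 0.158 ± 0.152 CPM in vehicle mMDSC. Its lowest vehicle gMDSC library, number 5, had 0.438 CPM. That was near the vehicle mMDSC maximum of 0.404 CPM and below the CBPi gMDSC minimum of 0.529 CPM. Each of these 3 markers had a lower mean under CBPi in the cell type it marks, at 354 ± 56.2 CPM for Ly6c2 in mMDSC, and at 815 ± 175 CPM for Cxcr2 and 0.973 ± 0.670 CPM for Ly6g in gMDSC; their part in the results below was not tested. Adgre1, which encodes F4/80, was 839 ± 90.8 CPM in vehicle mMDSC and 1038 ± 321 CPM in vehicle gMDSC although both gates excluded F4/80-positive cells. Crebbp and Ep300, which encode the drug's targets, did not pass the test in either cell type under CBPi; a bromodomain inhibitor acts on the protein, so their RNA checks nothing.

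Levels per gene width were read from the authors' RPKM, as means of 5 libraries. Under vehicle the uracil-nucleotide receptor gene P2ry6 was highest of the 9 in mMDSC at 205 ± 14.8 RPKM (SD). Its range did not overlap that of the next gene, Gpr35, at 98.5 ± 18.6 RPKM. Gpr84 (91.8 RPKM), Gpr183 (63.2 RPKM), Gpr18 (34.9 RPKM), P2ry14 (33.3 RPKM), P2ry13 (29.0 RPKM), P2ry12 (18.9 RPKM) and Gpr34 (12.8 RPKM) followed. Only the step from Gpr183 to Gpr18 among these separated neighbours without overlap of their libraries. In vehicle gMDSC the fatty acid receptor gene Gpr84 led at 183 ± 52.6 RPKM, before Gpr35 (128 RPKM), P2ry6 (116 RPKM), P2ry13 (88.7 RPKM), P2ry12 (40.4 RPKM), Gpr34 (24.7 RPKM), Gpr183 (21.7 RPKM), Gpr18 (14.4 RPKM) and P2ry14 (13.8 RPKM). Each neighbouring pair in that order overlapped.

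Under CBPi the order of the 9 genes differed from that under vehicle in both cell types. In CBPi mMDSC P2ry6 (127 RPKM), Gpr35 (59.7 RPKM) and Gpr84 (40.8 RPKM) stayed at the top, followed by P2ry14 (32.3 RPKM), P2ry13 (13.2 RPKM), Gpr183 (10.9 RPKM), P2ry12 (9.09 RPKM), Gpr18 (5.84 RPKM) and Gpr34 (2.03 RPKM). In CBPi gMDSC the order was Gpr35 (87.1 RPKM), P2ry6 (82.5 RPKM), Gpr84 (55.9 RPKM), P2ry13 (30.7 RPKM), P2ry14 (14.4 RPKM), P2ry12 (10.8 RPKM), Gpr34 (3.46 RPKM), Gpr18 (2.58 RPKM) and Gpr183 (1.93 RPKM). Gpr183 went from the fourth to the sixth place in mMDSC and from the seventh to the last in gMDSC. In gMDSC Gpr84 went from the first to the third place and P2ry14 from the last to the fifth. In CBPi mMDSC the libraries of neighbours did not overlap between P2ry6 and Gpr35, P2ry14 and P2ry13, and Gpr18 and Gpr34. In CBPi gMDSC they did not overlap between Gpr84 and P2ry13 and between P2ry12 and Gpr34.

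**Figure D2:**
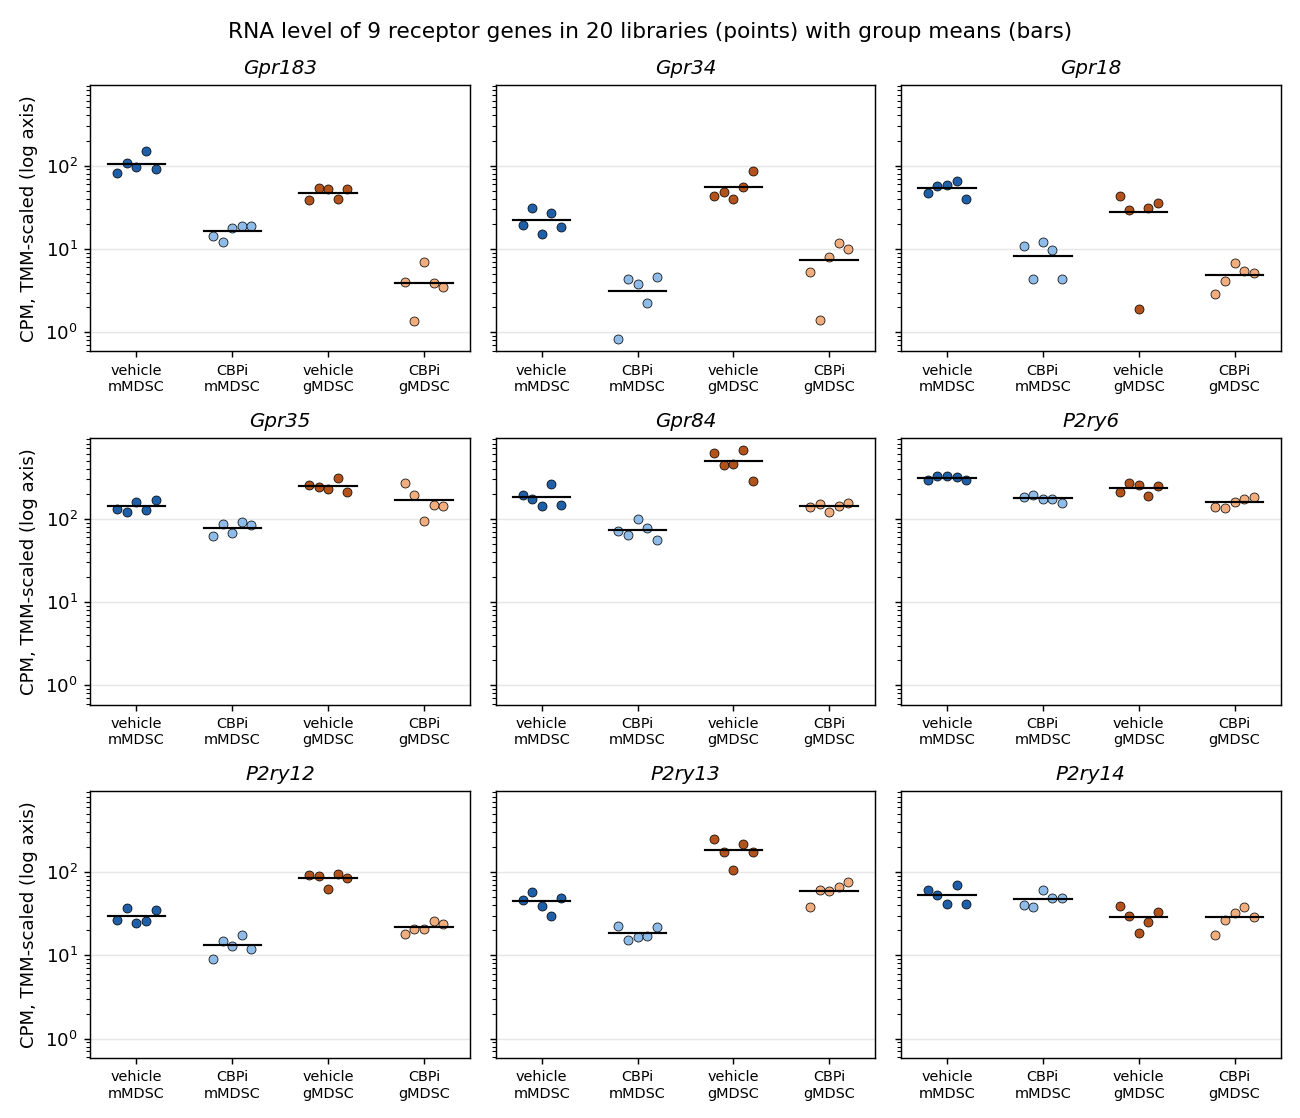
CPM scaled by TMM (log axis) of the 9 genes in each of the 20 libraries, with 1 point per library, 4 groups on the horizontal axis and a bar at each group mean. Gpr183 and Gpr34 are lower in all 5 CBPi libraries than in all 5 vehicle libraries of both cell types, Gpr18 has 1 vehicle gMDSC library below the CBPi libraries, and P2ry14 overlaps between treatments.

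The oxysterol receptor gene Gpr183 was 81.7, 108, 96.6, 149 and 89.9 CPM in vehicle mMDSC 1 to 5 and 14.3, 12.1, 17.7, 18.9 and 19.1 CPM in CBPi mMDSC 6 to 10. In vehicle gMDSC 1 to 5 it was 39.0, 53.4, 52.9, 39.5 and 52.3 CPM, and in CBPi gMDSC 6 to 10 it was 4.01, 1.35, 6.97, 3.88 and 3.46 CPM. Each vehicle library was above each CBPi library of its cell type, and the 4 groups did not overlap one another: vehicle mMDSC was highest, then vehicle gMDSC, CBPi mMDSC and CBPi gMDSC. The group means were 6.39-fold lower under CBPi in mMDSC (log2 fold change -2.69 ± 0.19, SE) and 12.05-fold lower in gMDSC (-3.55 ± 0.36). The gMDSC change minus the mMDSC change was -0.91 ± 0.38 on the log2 scale.

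The lysophosphatidylserine receptor gene Gpr34 was 19.6, 30.7, 15.2, 27.2 and 18.5 CPM in vehicle mMDSC and 0.822, 4.33, 3.84, 2.22 and 4.62 CPM in CBPi mMDSC. In vehicle gMDSC it was 43.5, 47.9, 39.8, 56.2 and 87.3 CPM, and in CBPi gMDSC 5.31, 1.40, 8.02, 11.9 and 9.90 CPM. Again treatments did not overlap within a cell type, vehicle gMDSC 5 was the highest library, and CBPi mMDSC 6 was the lowest with 21 counts. The means were 7.01-fold lower in mMDSC (log2 fold change -2.81 ± 0.39) and 7.52-fold lower in gMDSC (-2.88 ± 0.45), and the difference between these changes was -0.10 ± 0.61 on the log2 scale.

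Gpr18 was 47.3, 57.1, 57.8, 65.9 and 39.6 CPM in vehicle mMDSC and 10.8, 4.33, 12.2, 9.71 and 4.35 CPM in CBPi mMDSC, without overlap. In vehicle gMDSC it was 42.9, 29.1, 1.91, 31.4 and 35.3 CPM, and in CBPi gMDSC 2.85, 4.15, 6.87, 5.37 and 5.19 CPM. Vehicle gMDSC 3, with 20 counts, was below every CBPi gMDSC library, and the other 4 vehicle libraries were above them all. The means were 6.47-fold lower under CBPi in mMDSC (log2 fold change -2.71 ± 0.30) and 5.76-fold lower in gMDSC (-2.48 ± 0.57). Without vehicle gMDSC 3 the gMDSC value was -2.78. The difference between the 2 changes was 0.17 ± 0.65, and -0.12 without that library.

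Of the 6 genes added by name, 5 fell in mMDSC and 3 in gMDSC (edgeR quasi-likelihood test, Benjamini-Hochberg adjusted p under 0.05 over all genes), and none (0 of 6) rose. Of all genes tested, 5.54% were called lower and 3.02% higher in mMDSC, and 5.52% lower and 4.18% higher in gMDSC. Vehicle and CBPi libraries did not overlap for 5 of the 6 in mMDSC and 4 of the 6 in gMDSC, against 9.75% and 12.2% of all genes in either direction. The 6 were added with earlier results of these data known, so these counts are not an independent test of the 6 as a set. The median log2 fold change over the 9 genes, the 3 noted for low values included, was -1.25 in mMDSC and -1.76 in gMDSC, and over all genes tested 0.01 and 0.00. Over the 6 it was -1.02 and -1.05. All 9 genes passed the count filter in each comparison.

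The ADP receptor gene P2ry12, a marker of homeostatic microglia that also serves platelet aggregation, was 26.7, 36.5, 24.7, 25.8 and 35.3 CPM in vehicle mMDSC and 8.93, 14.7, 12.9, 17.6 and 11.9 CPM in CBPi mMDSC. In vehicle gMDSC it was 93.1, 90.0, 62.5, 94.4 and 85.7 CPM, and in CBPi gMDSC 18.3, 20.8, 20.6, 25.9 and 23.9 CPM. Treatments did not overlap in either cell type. It fell in mMDSC (log2 fold change -1.18 ± 0.20, adjusted p = 0.00279) and in gMDSC (-1.92 ± 0.18, adjusted p = 3.83e-05).

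Its neighbour P2ry13, also an ADP receptor gene, was 46.5, 57.3, 38.9, 29.7 and 48.8 CPM in vehicle mMDSC and 22.3, 15.4, 16.7, 17.1 and 22.0 CPM in CBPi mMDSC. In vehicle gMDSC it was 246, 172, 105, 215 and 174 CPM, and in CBPi gMDSC 37.8, 60.9, 59.6, 65.5 and 75.4 CPM. Treatments were again separate, and vehicle gMDSC 3 was the lowest vehicle gMDSC library. It fell in mMDSC (-1.25 ± 0.19, adjusted p = 0.00122) and in gMDSC (-1.56 ± 0.24, adjusted p = 0.00172).

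P2ry14, the UDP-glucose receptor gene in the same cluster, ranged from 41.3 to 69.5 CPM in vehicle mMDSC, 37.6 to 60.9 CPM in CBPi mMDSC, 18.7 to 39.0 CPM in vehicle gMDSC and 17.5 to 38.5 CPM in CBPi gMDSC. It passed the test in neither cell type under CBPi, with log2 fold changes of -0.18 ± 0.18 (adjusted p = 0.599) and 0.02 ± 0.25 (adjusted p = 0.97). The UDP receptor gene P2ry6, on another chromosome, ranged from 289 to 324 CPM in vehicle mMDSC and from 156 to 192 CPM in CBPi mMDSC, and fell there (-0.82 ± 0.09, adjusted p = 0.000201). In gMDSC its ranges of 187 to 267 and 134 to 181 CPM did not overlap, with a log2 fold change of -0.54 ± 0.16 and an adjusted p of 0.0505. That value passed the threshold when vehicle gMDSC 4 was left out (-0.62, adjusted p = 0.0434), with DESeq2 (adjusted p = 0.0106) and in a fit of all 20 libraries (adjusted p = 0.00264).

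Gpr84, whose product promotes inflammatory responses of macrophages and neutrophils, was 191, 172, 141, 262 and 148 CPM in vehicle mMDSC and 72.4, 64.5, 100.3, 78.4 and 55.0 CPM in CBPi mMDSC. In vehicle gMDSC it was 616, 447, 458, 666 and 283 CPM, and in CBPi gMDSC 139, 149, 121, 143 and 154 CPM. CBPi libraries were below vehicle libraries in both cell types, and the CBPi gMDSC libraries were close together. Gpr84 fell in mMDSC (-1.31 ± 0.19, adjusted p = 0.00121) and in gMDSC (-1.76 ± 0.20, adjusted p = 0.000267). Gpr35 ranged from 122 to 169 CPM in vehicle and 62.3 to 90.6 CPM in CBPi mMDSC and fell there (-0.86 ± 0.15, adjusted p = 0.00286). In gMDSC its ranges of 209 to 311 and 93.7 to 266 CPM overlapped and it did not pass the test (-0.53 ± 0.24, adjusted p = 0.177).

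**Figure D3:**
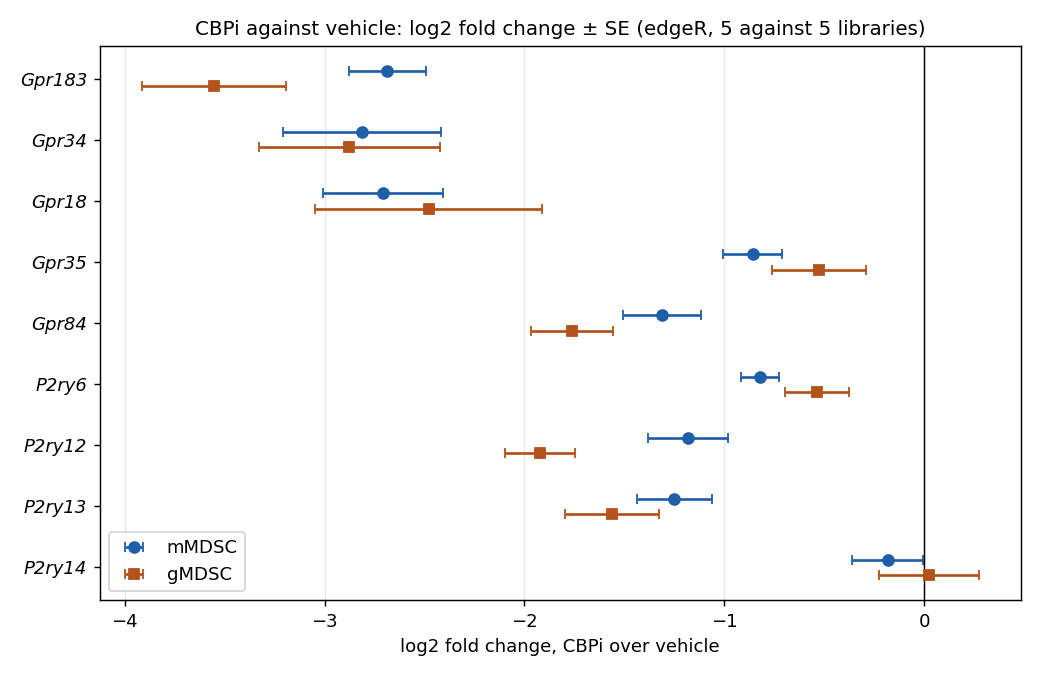
Log2 fold change of CBPi over vehicle on the horizontal axis for each gene, with error bars of ±1 SE, in mMDSC (blue circles) and gMDSC (orange squares), 5 against 5 libraries each. Gpr183, Gpr34 and Gpr18, noted for these values, lie from -3.55 to -2.48, and P2ry14 lies at -0.18 and 0.02.

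The difference between the CBPi responses of the cell types was tested for the 6 genes added by name, and 0 of 6 passed with edgeR's quasi-likelihood test, while 0.725% of all genes did. At an unadjusted p under 0.05 there was 1 of 6, P2ry12, at -0.79 ± 0.26 on the log2 scale (gMDSC minus mMDSC) (unadjusted p = 0.00579, adjusted p = 0.201), and DESeq2 also called 0 of 6. The share of all genes at that unadjusted threshold is not given here. The other differences, gMDSC minus mMDSC, were -0.50 ± 0.29 for Gpr84, -0.36 ± 0.31 for P2ry13, 0.15 ± 0.31 for P2ry14, 0.24 ± 0.17 for P2ry6 and 0.29 ± 0.29 for Gpr35. So the calls of P2ry6 and Gpr35 in mMDSC and not in gMDSC are not shown to differ between the cell types.

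The cell types themselves were compared in each treatment, for all 9 genes. Under vehicle, 5 were higher and 2 lower in gMDSC than in mMDSC, where 13.6% of all genes were called higher and 8.08% lower, 21.7% in all. The 2 ADP receptor genes P2ry13 (log2 fold change 2.06 ± 0.23, adjusted p = 4.13e-05) and P2ry12 (1.53 ± 0.18, adjusted p = 5.1e-05) were higher in gMDSC, as were Gpr84 (1.44 ± 0.24, adjusted p = 0.000792), Gpr34 (1.32 ± 0.27, adjusted p = 0.00345) and Gpr35 (0.82 ± 0.15, adjusted p = 0.00144). Gpr183 (-1.13 ± 0.20, adjusted p = 0.00127) and P2ry14 (-0.86 ± 0.23, adjusted p = 0.0178) were lower in gMDSC. So P2ry12 and P2ry13 on the one side and P2ry14 on the other differed between the cell types in opposite directions within 1 gene cluster. Gpr34 and Gpr183 also differed in opposite directions.

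P2ry6 (-0.38 ± 0.14, adjusted p = 0.0687) and Gpr18 (-0.91 ± 0.51, adjusted p = 0.244) did not pass under vehicle. Both passed without vehicle gMDSC 3, P2ry6 at -0.43 (adjusted p = 0.031) and Gpr18 at -0.62 (adjusted p = 0.0279). P2ry6 also passed with DESeq2 (adjusted p = 0.0264), in a fit of all 20 libraries (adjusted p = 0.0163) and without vehicle gMDSC 3 and 5 (adjusted p = 0.0376), while Gpr18 without both had an adjusted p of 0.0524. The libraries of the cell types did not overlap for 8 of the 9 genes under vehicle, against 20.2% of all genes, and Gpr18 was the exception.

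Under CBPi, 4 of the 9 were higher and 2 lower in gMDSC, where 20.1% of all genes were called higher and 19.1% lower, 39.2% in all. P2ry13 (1.74 ± 0.19, adjusted p = 1.34e-05), Gpr35 (1.15 ± 0.23, adjusted p = 0.00155), Gpr84 (0.99 ± 0.16, adjusted p = 0.000271) and P2ry12 (0.78 ± 0.20, adjusted p = 0.00668) were higher. Gpr183 (-2.004 ± 0.34, adjusted p = 0.000485) and P2ry14 (-0.67 ± 0.20, adjusted p = 0.0187) were lower; without CBPi mMDSC 8 P2ry14 no longer passed (-0.56, adjusted p = 0.0512). Gpr34 was at 1.26 ± 0.54 (adjusted p = 0.08) and passed without CBPi gMDSC 7 (1.52, adjusted p = 0.0212), with DESeq2 (adjusted p = 0.0392) and in a fit of all 20 libraries (adjusted p = 0.0402). Gpr18 (-0.70 ± 0.36, adjusted p = 0.14) and P2ry6 (-0.10 ± 0.12, adjusted p = 0.552) did not pass. Libraries did not overlap for 5 of the 9 genes, against 29.9% of all genes.

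**Figure D4:**
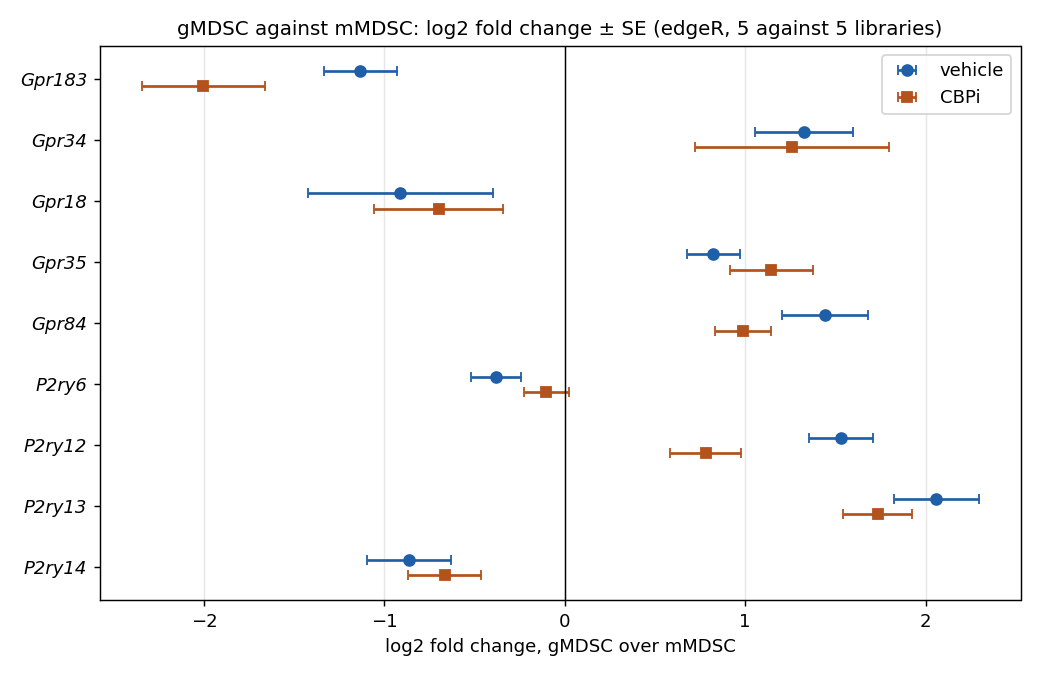
Log2 fold change of gMDSC over mMDSC on the horizontal axis for each gene, with error bars of ±1 SE, under vehicle (blue circles) and under CBPi (orange squares), 5 against 5 libraries each. P2ry13 lies farthest to the right at 2.06 and 1.74, and Gpr183 farthest to the left at -1.13 and -2.004.

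Host and neighbouring genes were compared for the nested receptors. Ubac2, the host of Gpr183 and Gpr18, did not pass under CBPi in mMDSC (-0.04 ± 0.10, adjusted p = 0.853) or gMDSC (-0.17 ± 0.16, adjusted p = 0.541). Cask, the host of Gpr34, did not pass either (0.29 ± 0.20, adjusted p = 0.436, and 0.54 ± 0.24, adjusted p = 0.172), nor did Gpr82 beside it (-1.32 ± 0.56, adjusted p = 0.182, and -0.76 ± 0.94, adjusted p = 0.654), which was at 3.14 CPM or less on average in each group.

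Med12l, the host of the P2ry12 cluster and a Mediator subunit gene, moved in gMDSC with P2ry12 and P2ry13. It was 33.7 ± 11.5 CPM (SD) in vehicle gMDSC and 12.4 ± 3.21 CPM in CBPi gMDSC, a log2 fold change of -1.40 ± 0.28 (adjusted p = 0.00772). In mMDSC it was 4.60 ± 2.04 CPM under vehicle and did not pass under CBPi (-0.30 ± 0.34, adjusted p = 0.657), and it was higher in vehicle gMDSC than vehicle mMDSC (2.88 ± 0.35, adjusted p = 6.47e-05). Gpr171, beside P2ry14, rose in gMDSC under CBPi (1.30 ± 0.33, adjusted p = 0.0271) and was lower in vehicle gMDSC than vehicle mMDSC (-2.24 ± 0.31, adjusted p = 0.000176). Whether reads of Med12l transcripts add to the counts of the genes nested in it was not tested. Of the neighbours of Gpr84, Zfp385a fell in both cell types (-0.85 ± 0.14, adjusted p = 0.00222, and -0.75 ± 0.18, adjusted p = 0.0192) and Copz1 passed in neither (-0.10 ± 0.10, adjusted p = 0.609, and 0.02 ± 0.14, adjusted p = 0.941). Capn10, 103 bases from Gpr35, passed in neither (0.53 ± 0.32, adjusted p = 0.369, and 0.93 ± 0.37, adjusted p = 0.13). P2ry2, the nearest gene above P2ry6 and itself a nucleotide receptor gene, passed in neither (-0.20 ± 0.20, adjusted p = 0.597, and 0.35 ± 0.25, adjusted p = 0.396). Dock9, next to Gpr18, was tested in mMDSC only (0.96 ± 1.02, adjusted p = 0.643), and Timm8a2, Nyx, Aqp12, Arhgef17 and Igsf10 did not pass the count filter in either CBPi comparison.

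Enzymes that make or break down the ligands were read from lists chosen with earlier results of these data known, and the counts below are out of the genes tested. Of all genes tested, 5.54% were called lower in mMDSC and 5.52% in gMDSC, and 3.02% and 4.18% higher. Counts below at an unadjusted p under 0.05 are given without the share of all genes at that threshold. They therefore cannot be set against that share and are not read as results. For GPR183, 2 of 5 oxysterol enzyme genes fell and 0 rose in mMDSC, and 2 of 4 fell and 0 rose in gMDSC (list medians -0.53 and -0.73). Ch25h, which makes 25-hydroxycholesterol, went from 148 ± 14.7 CPM (SD) under vehicle to 38.4 ± 12.6 CPM under CBPi in mMDSC (-1.96 ± 0.19, adjusted p = 5.17e-05) and from 140.4 ± 24.8 to 78.8 ± 11.5 CPM in gMDSC (-0.80 ± 0.16, adjusted p = 0.0102). Its fall was smaller in gMDSC by 1.12 ± 0.25 on the log2 scale (interaction, adjusted p = 0.0427). Cyp27a1, a sterol 27-hydroxylase gene, fell in mMDSC (-0.53 ± 0.15, adjusted p = 0.045) and was at -0.66 ± 0.22 in gMDSC (adjusted p = 0.0776), Hsd11b1 fell in gMDSC (-1.51 ± 0.37, adjusted p = 0.0234), and Cyp7b1 was at 3.04 ± 0.99 in mMDSC (adjusted p = 0.0783) from a vehicle mean of 0.299 CPM. Hsd3b7, in the same list, had higher means under CBPi but passed in neither cell type. Its mean was 62.7 CPM in vehicle mMDSC and 82.6 CPM in CBPi mMDSC. In gMDSC it was at 0.62 ± 0.35 (adjusted p = 0.282).

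For GPR34, 1 of 7 lysophosphatidylserine enzyme genes fell in mMDSC, Abhd12, a lysophosphatidylserine lipase gene (-0.57 ± 0.12, adjusted p = 0.0115), and 0 of 7 passed in gMDSC, with 2 at an unadjusted p under 0.05. Pla1a, a phosphatidylserine-specific phospholipase gene, was 45.5 ± 20.7 CPM (SD) in vehicle gMDSC and 3.18 ± 1.55 CPM in vehicle mMDSC (3.84 ± 0.41, adjusted p = 2.3e-05), and was at -0.91 ± 0.32 under CBPi in gMDSC (adjusted p = 0.0938). For GPR18, 0 of 5 genes of proposed ligands passed in mMDSC, with 1 at an unadjusted p under 0.05, and 2 of 5 fell in gMDSC. These were Naaa, an N-acylethanolamine amidase gene (-1.10 ± 0.14, adjusted p = 0.000547), and Alox5, the 5-lipoxygenase gene (-1.45 ± 0.20, adjusted p = 0.000829). The change of Naaa was lower in gMDSC than in mMDSC (difference -0.78 ± 0.17, interaction adjusted p = 0.0354).

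For GPR35, 2 of 7 kynurenine and indole enzyme genes fell in mMDSC, Kmo (-1.16 ± 0.29, adjusted p = 0.0245) and Aldh2 (-0.40 ± 0.10, adjusted p = 0.0245), and 1 of 6 in gMDSC, Aldh2 (-1.31 ± 0.16, adjusted p = 0.000399). The fall of Aldh2 was larger in gMDSC (difference -0.95 ± 0.18, interaction adjusted p = 0.0161). For GPR84, 0 of 5 medium-chain fatty acid enzyme genes passed in either cell type, with 3 at an unadjusted p under 0.05 in mMDSC and 0 in gMDSC. Among genes of nucleotide release and breakdown, 0 of 10 passed in mMDSC, with 3 at an unadjusted p under 0.05, and 2 fell and 1 rose of 10 in gMDSC. Entpd3, an ectonucleotidase gene, went from 265 ± 31.2 to 56.7 ± 6.35 CPM (SD) in gMDSC (-2.19 ± 0.15, adjusted p = 4.1e-06). Nt5e, which encodes the adenosine-forming CD73, fell (-1.77 ± 0.33, adjusted p = 0.00604), and Ugdh, which oxidises UDP-glucose, rose (0.67 ± 0.16, adjusted p = 0.0189).

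Among 57 other receptor genes for nucleotides and lipids, 10 of 38 tested fell and 0 rose in mMDSC, and 9 of 34 fell and 2 rose in gMDSC, against 5.54% and 5.52% of all genes called lower. The list medians were -0.56 and -0.25. The proton-sensing receptor gene Gpr65 fell in both (-1.02 ± 0.12, adjusted p = 0.000198, and -1.01 ± 0.18, adjusted p = 0.0048). The formyl peptide receptor genes Fpr1 (-2.29 ± 0.34, adjusted p = 0.00122) and Fpr2 (-1.77 ± 0.28, adjusted p = 0.002) had the next smallest p in mMDSC. The prostaglandin E2 receptor gene Ptger2 (-1.96 ± 0.25, adjusted p = 0.000464) and the leukotriene B4 receptor gene Ltb4r1 (-1.36 ± 0.24, adjusted p = 0.00449) had the smallest in gMDSC. The 2 that rose in gMDSC were Hcar2, a hydroxycarboxylic acid receptor gene (1.10 ± 0.27, adjusted p = 0.0234), and Gpr171; both were named after their values were seen.

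Of the G protein and receptor-regulation genes, 4 of 28 fell and 0 rose in each cell type, against 5.54% and 5.52% of all genes called lower, with list medians of -0.27 and -0.34. Gna15, a G protein alpha subunit gene of blood cells (-1 ± 0.19, adjusted p = 0.0051, and -1.12 ± 0.21, adjusted p = 0.00571), Rgs10, which shortens G protein signals (-0.95 ± 0.19, adjusted p = 0.00843, and -1.26 ± 0.23, adjusted p = 0.00523), and Arrb2, a beta-arrestin gene (-0.43 ± 0.10, adjusted p = 0.0147, and -0.74 ± 0.14, adjusted p = 0.00618), fell in both mMDSC and gMDSC.

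The genes most like each of the noted receptors were ranked by Pearson correlation of log2 CPM over all 20 libraries and 12375 genes. The libraries fall into the 4 groups, so these values follow the group means and are given as a description. Gpr183 was closest to the MHC class II pathway genes H2-DMb1 (r = 0.972), H2-DMb2 (r = 0.967) and H2-Ab1 (r = 0.965). H2-Ab1, which encodes a class II beta chain, was 6491 ± 1403 CPM in vehicle mMDSC, 3427 ± 734 CPM in vehicle gMDSC, 2212 ± 701 CPM in CBPi mMDSC and 531 ± 132 CPM in CBPi gMDSC (SD, n = 5), the same order of groups as Gpr183. H2-DMb1 and H2-DMb2 are close copies, and how the counting divided reads between them is uncertain. Within groups, H2-DMb1 correlated with Gpr183 at 0.50 in vehicle mMDSC and 0.75 in CBPi mMDSC. In vehicle gMDSC that correlation was 0.14, and in CBPi gMDSC 0.76.

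Gpr34 was closest to Gdf3 (r = 0.940), a TGF-beta family ligand gene, Ppfia4 (r = 0.931) and the calmodulin kinase gene Camk1 (r = 0.925). Gdf3 was 114 ± 11.002 CPM in vehicle gMDSC, 74.4 ± 8.18 CPM in vehicle mMDSC, 46.9 ± 17.9 CPM in CBPi gMDSC and 19.7 ± 6.71 CPM in CBPi mMDSC. Within groups, Gdf3 correlated with Gpr34 at 0.62 in vehicle mMDSC and 0.86 in CBPi mMDSC. In vehicle gMDSC that correlation was -0.81, and in CBPi gMDSC 0.84. Gpr18 was closest to Otulinl (r = 0.923), the inhibitory collagen receptor gene Lair1 (r = 0.918) and Gpr65 (r = 0.907). Within vehicle gMDSC these genes correlated with Gpr18 at 0.983, 0.976 and 0.885, and within vehicle mMDSC at -0.02, 0.34 and 0.72. Vehicle gMDSC 3 was the lowest of its group in both Gpr18 and Otulinl, and the ranking was not repeated without it. By Spearman correlation only 1 of the 3 genes nearest to Gpr183, and 1 of the 3 nearest to Gpr18, was among the 3 nearest again.

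**Figure D5:**
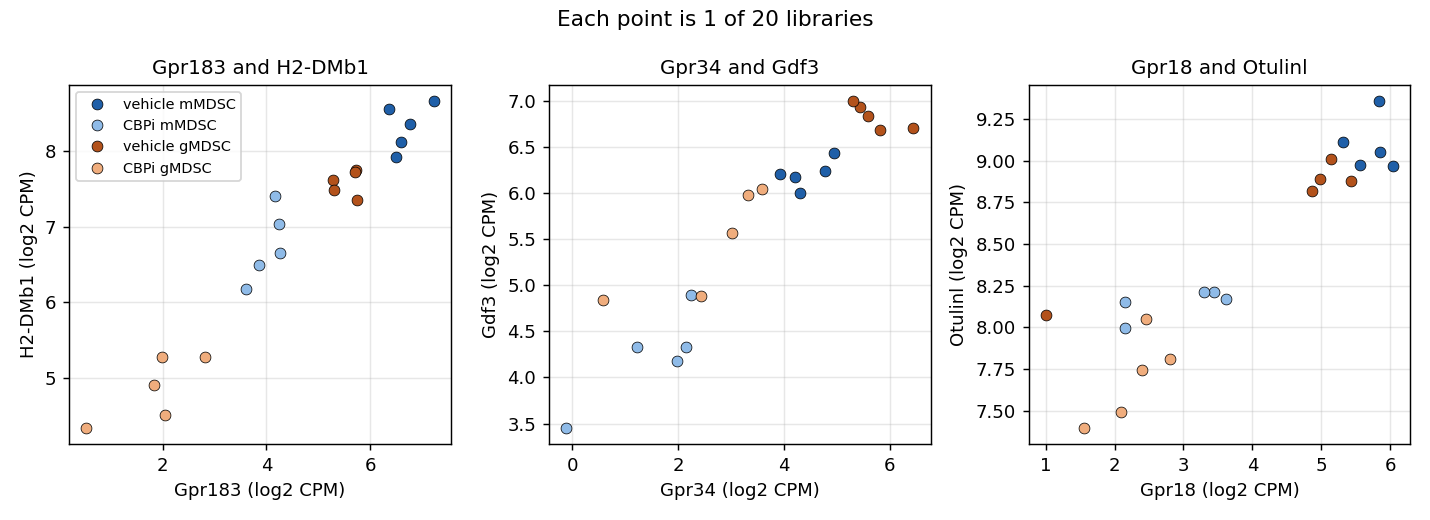
Log2 CPM of Gpr183, Gpr34 and Gpr18 (horizontal axes) against the gene with the highest correlation to each (vertical axes), with 1 point per library coloured by group. The 4 groups do not overlap in Gpr183. For Gpr34 the 2 CBPi groups overlap, and for Gpr18 both the CBPi groups and the vehicle groups overlap. Vehicle gMDSC 3 lies below every CBPi library in Gpr18.

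Marker lists of other cell types are given beside these genes. Some were lower under CBPi and some were not, and their part in the results was not tested. For the counts of marker genes called, the shares of all genes tested are repeated here. They were 5.54% lower and 3.02% higher in mMDSC, and 5.52% lower and 4.18% higher in gMDSC. In bulk RNA, fewer cells of a type and less RNA per cell cannot be told apart. The microglia and resident macrophage list (6 genes), which P2ry12, P2ry13 and Gpr34 often accompany, had a summed level of 1394 to 1855 CPM in vehicle mMDSC, 738 to 882 CPM in CBPi mMDSC, 2506 to 3898 CPM in vehicle gMDSC and 942 to 1704 CPM in CBPi gMDSC. Of its 5 tested genes, 3 fell in mMDSC and 4 in gMDSC, among them Tmem119 (-2.52 ± 0.25, adjusted p = 8.03e-05, and -1.72 ± 0.26, adjusted p = 0.00152). Sall1, which defines microglia, was at 0 in vehicle mMDSC and near 0 elsewhere, with means of 0.029 CPM in CBPi mMDSC, 0.019 CPM in vehicle gMDSC and 0.011 CPM in CBPi gMDSC. The macrophage list (10 genes) summed to 22363 to 32027, 18865 to 23758, 33975 to 77644 and 16106 to 31692 CPM in the same order, with 4 of 10 falling and 1 rising in mMDSC and 3 falling in gMDSC. Between cell types under vehicle, 4 of 5 tested microglia list genes were higher in gMDSC and 0 lower. Of the macrophage list, 5 of 10 were higher there and 1 lower. Of all genes tested in that comparison, 13.6% were called higher and 8.08% lower. Their part in the cell type differences was not tested.

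Dendritic cells express Gpr183. Their list (10 genes) summed to 370 to 550 CPM in vehicle mMDSC and 221 to 287 CPM in CBPi mMDSC. In gMDSC it summed to 461 to 671 CPM under vehicle and 243 to 358 CPM under CBPi. Of the tested genes, 2 of 8 fell and 1 rose in mMDSC, and 2 of 7 fell and 1 rose in gMDSC. The median log2 fold change of the tested genes was positive, at 0.39 in mMDSC and 0.31 in gMDSC, although the sums were lower under CBPi. Xcr1 was at 0 in CBPi mMDSC. B cells also express Gpr183 and Gpr18, and their matched genes (5 of 6) summed to 7.34 to 18.6, 6.56 to 12.9, 11.1 to 28.5 and 9.32 to 22.8 CPM, with Pax5 at 0 in all 20 libraries. The T and NK cell genes (6 of 7 matched) summed to 4.14 to 15.2, 1.37 to 9.74, 16.0 to 54.3 and 2.74 to 7.82 CPM; 1 of 3 tested fell in mMDSC and 2 of 4 in gMDSC.

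The eosinophil, mast cell and basophil list (8 genes) summed to 62.7 to 93.3 CPM in vehicle gMDSC and 18.5 to 25.98 CPM in CBPi gMDSC, with 2 of 3 tested genes falling, Prg2 and Fcer1a at 0 in both groups and Epx and Mcpt8 at 0 under CBPi. Siglecf alone made up most of it, with 52.7 to 86.6 CPM under vehicle and 15.4 to 21.8 CPM under CBPi. In mMDSC it summed to 0.693 to 7.41 CPM under vehicle and 1.51 to 3.32 CPM under CBPi. The neutrophil list (10 genes) summed to 335 to 387 CPM in vehicle mMDSC, 211 to 325 CPM in CBPi mMDSC, 9253 to 35155 CPM in vehicle gMDSC and 7889 to 14579 CPM in CBPi gMDSC, with 1 of 8 tested falling and 1 rising in mMDSC and 3 of 10 falling in gMDSC. The monocyte list (8 genes) summed to 5562 to 6769, 4357 to 6582, 3611 to 5954 and 5084 to 6030 CPM, with 3 of 8 genes falling and 1 rising in mMDSC and 3 falling and 3 rising in gMDSC. The platelet list (5 genes), another source of P2ry12, summed to 25.2 to 52.5 CPM in vehicle mMDSC and 82.4 to 266 CPM in CBPi mMDSC with 1 of 4 tested genes rising. In gMDSC it summed to 27.4 to 82.7 CPM under vehicle and 49.7 to 67.5 CPM under CBPi. Stroma and endothelium (6 genes) summed to 70.9 to 276, 66.2 to 218, 114 to 379 and 103 to 323 CPM, with 0 genes passing in either CBPi comparison and 1 and 0 at an unadjusted p under 0.05. The share of all genes at that unadjusted threshold is not given here.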

How the data were processed

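The authors deposited 1 raw count per gene, a whole number of reads without normalization, for 23090 genes in each of 20 libraries. They also deposited RPKM, scaled by a larger library total than the counts themselves, which came to 50.25% to 62.44% of it. RPKM is per gene width as given by the authors. Widths were multiples of 3 in 80.0% of genes, so they were taken as near coding length. The width of Gpr35, 947 bases, was not a multiple of 3. GSNAP aligned the reads to GRCm38, per the submitters' processing notes; how reads were counted is not given in the sources used here. RefSeq's table of GRCm38.p6 gave symbols for 21647 IDs and none for 1443, and GENCODE M21 gave strand and exons.

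The test was the quasi-likelihood test of edgeR 4.0.16 (R 4.3.3) with TMM scaling, after filterByExpr with a minimum count of 10 and a minimum total of 15, on the 10 libraries compared or all 20 for the difference in response. The threshold was 0.05 on the p-value after Benjamini-Hochberg adjustment over all genes. SE is the absolute log2 fold change over the square root of F. The test was run on simulated counts of independent libraries, drawn with the dispersions that edgeR estimated from these data. That run cannot check the effect of shared mice, tumour lines or outlying libraries. Replicates differed by more than sampling noise (lowest chi-square over degrees of freedom 20.8). Alternatives were DESeq2 1.42.0, RLE size factors, no count filter, all 20 libraries in 1 fit, a replicate block and leaving out each library. The fit without vehicle gMDSC 3 and 5 was chosen after seeing the data, because library 3 agreed least with its group and library 5 had the lowest Ly6g of vehicle gMDSC. Promoter windows stop 11 bases before the annotated start so that no transcribed bases are shown.

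The members and lists were chosen with earlier results of these data known. Named were all 9 members, up to 3 genes of each ligand, receptor and G protein list with the smallest p in each CBPi comparison, host and nearest genes, the 3 genes most like each noted receptor, and marker lists as sums. The cell type value of Pla1a, Hsd3b7, Hcar2, Gpr171 among the receptors, and single marker genes were named after their values were seen. Some genes are not reported here.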

Additional observations from a re-analysis of the deposited data

Results flagged for a closer look

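P2ry12 was 62.5 CPM in vehicle gMDSC 3, farther below the other 4 vehicle gMDSC libraries than Dixon's test allows for 5 values (gap over range 0.728, critical value 0.71). This was 1 of 36 groups of 5 values tested over the 9 genes, and chance flags about 1 in 20. Gpr18 in the same library, at 1.91 CPM, and P2ry13, at 105 CPM, were also the lowest of their group.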

How the results depend on the processing

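Under the alternatives run, 5 of the 6 genes added by name were called under CBPi in mMDSC in each, 3 to 4 in gMDSC and 0 for the difference in response. Between cell types 7 to 9 of the 9 genes were called under vehicle and 5 to 7 under CBPi. P2ry14 in gMDSC under CBPi, at 0.02 and not called, changed sign in the fit of all 20 libraries (-0.019), without vehicle gMDSC 3 and 5 (-0.060), and without vehicle gMDSC 3 or 4 or CBPi gMDSC 8 or 9, with a range of -0.11 to 0.16 when each library was left out. Of 3 nearest genes by Pearson correlation, Spearman correlation kept 1 for Gpr183 and 1 for Gpr18.

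The cause of the following moves was not tested. In mMDSC under CBPi 360 genes were called higher, against 678 with DESeq2, 165 with all 20 libraries in 1 fit and 221 to 448 when each library was left out; vehicle mMDSC 2 and 3 and CBPi mMDSC 9 and 10 moved it by over 1.5 times. In gMDSC 489 were higher and 646 lower, against 866 and 1060 with DESeq2 and 872 and 1310 with all 20 libraries in 1 fit. Leaving out each library gave 229 to 658 higher and 358 to 736 lower, with CBPi gMDSC 6, 7, 8 and 10 moving either by over 1.5 times. Between cell types under vehicle 935 were lower, against 1519 with all 20 libraries in 1 fit and 676 to 1521 when each library was left out, the highest without vehicle gMDSC 3. For the difference in response 63 were higher and 29 lower, against 184 and 93 with DESeq2, and 23 to 85 and 10 to 32 when each library was left out, with moves of over 1.5 times without vehicle mMDSC 1, 2, 3 or 5, CBPi mMDSC 6, 8, 9 or 10, vehicle gMDSC 1 or 4, or CBPi gMDSC 6, 7 or 8.

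Deviations of same-numbered mMDSC and gMDSC libraries from their group means correlated at -0.03 to 0.17 under vehicle and 0.01 to 0.11 under CBPi. Of 5 pairs, 0 under vehicle and 1 under CBPi correlated best with their own number. Low correlations can also come from noise between libraries, so they do not show whether 2 libraries shared a mouse. With the replicate number as a block the difference in response gave 33 higher and 19 lower, and the members called were 7, 6 and 0 as without it. Gpr34 in CBPi mMDSC 6 and Gpr18 in vehicle gMDSC 3 rest on 21 and 20 counts, which limits their precision.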
